A study of Danio rerio with 4 samples.

Results

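The repeat names described here are the endogenous retrovirus entries of a zebrafish (*Danio rerio*) RNA-sequencing count table, chosen as every name that starts with ERV or ZFERV. There were 37 such names among 1821 repeat names, and 1004 of the 1821 were transposon names. By the start of the name, 24 belonged to ERV1, 2 to ERV4, 4 to ZFERV and 7 to the remaining families ERV2, ERV3, ERV5 and ERVN1. By the suffix, 18 were internal parts (I) and 19 were long terminal repeats (LTR). Whole larvae homozygous for the hi272 allele of *uhrf1* were compared at 5 days post fertilization (dpf) with phenotypically normal siblings, a mixture of +/+ and +/- larvae. Larvae were sorted by phenotype, 10 were pooled per library, and there were 2 mutant and 2 sibling libraries of ribosome-depleted total RNA. The labels name 2 clutches but tie no clutch to a library, so the p-values measure only the spread between these pools. For single names that spread was estimated largely over all names together and not from each name's own pools.

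An endogenous retrovirus is the germline remnant of a retroviral infection. An internal region that once encoded the Gag, Pol and Env proteins lies between LTRs, and the LTR carries the promoter and the polyadenylation signal. Recombination between the LTRs of a copy removes the internal region and leaves a solo LTR, so LTR and internal counts need not come from the same copies. In the repeat names used here, DR stands for *Danio rerio* and N marks a family that lacks its own proteins. In vertebrates, cytosine methylation and repressive histone marks hold such elements silent. Uhrf1 recognises hemimethylated DNA behind the replication fork and recruits the methyltransferase Dnmt1. The hi alleles of zebrafish come from insertional mutagenesis with a retroviral vector. The counts are per name and not per genomic copy, so coordinates, sequences and host genes of the copies were not analysed here.

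Between 2996676 and 9100665 counts per library were assigned to genes and between 624213 and 1653765 to transposons. The siblings lay on either side of the mutants. Sibling 1 had 13.5 transposon counts per 100 gene counts and sibling 2 had 26.5, where the mutants had 18.2 and 18.9. Values are therefore given on 2 scales. One is counts per 1000000 gene counts, called gene-scaled counts here, on which sibling 2 lay above sibling 1 for most of the 37 names. The other is the percent of all transposon counts in the library. It divides out a difference shared by the transposon names, which not every name followed. Siblings 1 and 2 had 1443 and 1587 gene-scaled counts of ERV1-N7-LTR_DR but shares of 1.07% and 0.598%. For ZFERV_LTR they had 70.5 and 60.1 but shares of 0.0522% and 0.0226%. Levels of *uhrf1* were 21.4 and 46.8 CPM in the sibling libraries and 33.3 and 24.1 in the mutant libraries (CPM, counts per 1000000 counts after TMM scaling). The groups overlapped, so its level does not check the labels. With 2 libraries against 2, an exact two-sided permutation test cannot give a p under 0.333.

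Endogenous retrovirus names took a larger share of transposon counts in both mutants than in both siblings. So did all 467 LTR retrotransposon names together, these 37 included. They held 9.79% and 9.26% in siblings 1 and 2 and 12.9% and 14.1% in mutants 1 and 2. The 37 names together held 5.27% of transposon counts in sibling 1 (95% Wilson interval 5.22 to 5.33), 4.82% in sibling 2 (4.77 to 4.87), 7.74% in mutant 1 (7.69 to 7.78) and 8.59% in mutant 2 (8.52 to 8.66). These intervals cover counting error only. The means were 5.05% ± 0.319 (SD, n = 2) and 8.16% ± 0.604 (SD, n = 2), a difference of 3.12 percentage points with an exact two-sided permutation p of 0.333, the smallest these libraries allow. The sum in gene-scaled counts was 7118 and 12795 in siblings 1 and 2, and 14057 and 16251 in mutants 1 and 2. Both mutants again lay above both siblings, but sibling 2 came close to mutant 1. The log2 difference in this sum, 0.66, was 0.24 without sibling 1 and 1.09 without sibling 2. In whole larvae, more RNA per cell and more cells that transcribe an element cannot be told apart.

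**Figure D1:**
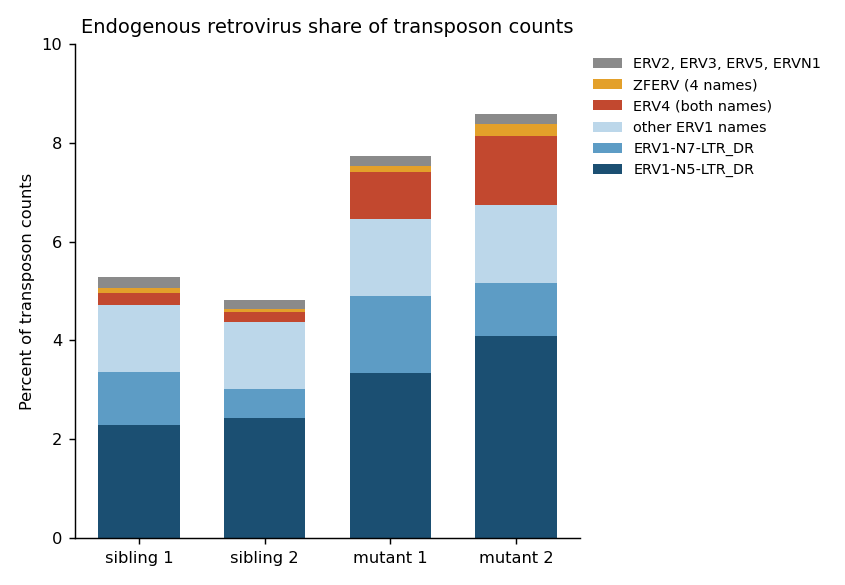
Stacked bars give the percent of all transposon counts (vertical axis) held by endogenous retrovirus names in each of the 4 libraries, split by name or family. The bars total 5.27% and 4.82% in the siblings and 7.74% and 8.59% in the mutants. ERV1-N5-LTR_DR is the largest segment in every library, and the ERV4 segment grows most in proportion.

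A few names carried most of these counts. ERV1-N5-LTR_DR alone held 43.3% and 50.3% of all endogenous retrovirus counts in siblings 1 and 2 and 43.1% and 47.5% in mutants 1 and 2. ERV1-N7-LTR_DR followed with 20.3%, 12.4%, 20.3% and 12.6% in the same order. The remaining names ranged widely: totals over the 4 libraries ran from 65 counts for ZFERV-2-LTR_DR to 115247 for ERV1-N5-LTR_DR, with a median of 1439. Element lengths and copy numbers are not in the files, so these shares describe counts and not the output of a copy. All 37 names passed the count filter and were tested, ZFERV-2-LTR_DR only through its mutant counts.

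Of the 37 names, 1 passed edgeR's quasi-likelihood test scaled to genes (Benjamini-Hochberg adjusted p under 0.05 over 1029 repeat names), the internal part of ERV4. It was higher in mutants, and 0.292% of all names tested were called higher. No name was called lower, where 0.194% of all names tested were. Without adjustment, 6 names had a p under 0.05, all higher, beside 33 of 905 transposon names, also all higher, and DESeq2 and limma-voom also called no name lower. On this scale both mutants exceeded both siblings in 8 of the 37 names, or 21.6%, beside 8.07% of all names tested. They fell short of both in 3, or 8.11%, beside 3.6% of all names tested. The shares with both mutants above were similar for Gypsy and BEL names, given below. ZFERV-2-LTR_DR, which reached the count filter only through the mutants, is among the 6 and the 8. The 36 names that did not pass had log2 fold changes from -0.80 to 2.05. The median over the 37 names was 0.07, beside -0.15 over all repeat names tested, and 21 lay above 0.

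**Figure D2:**
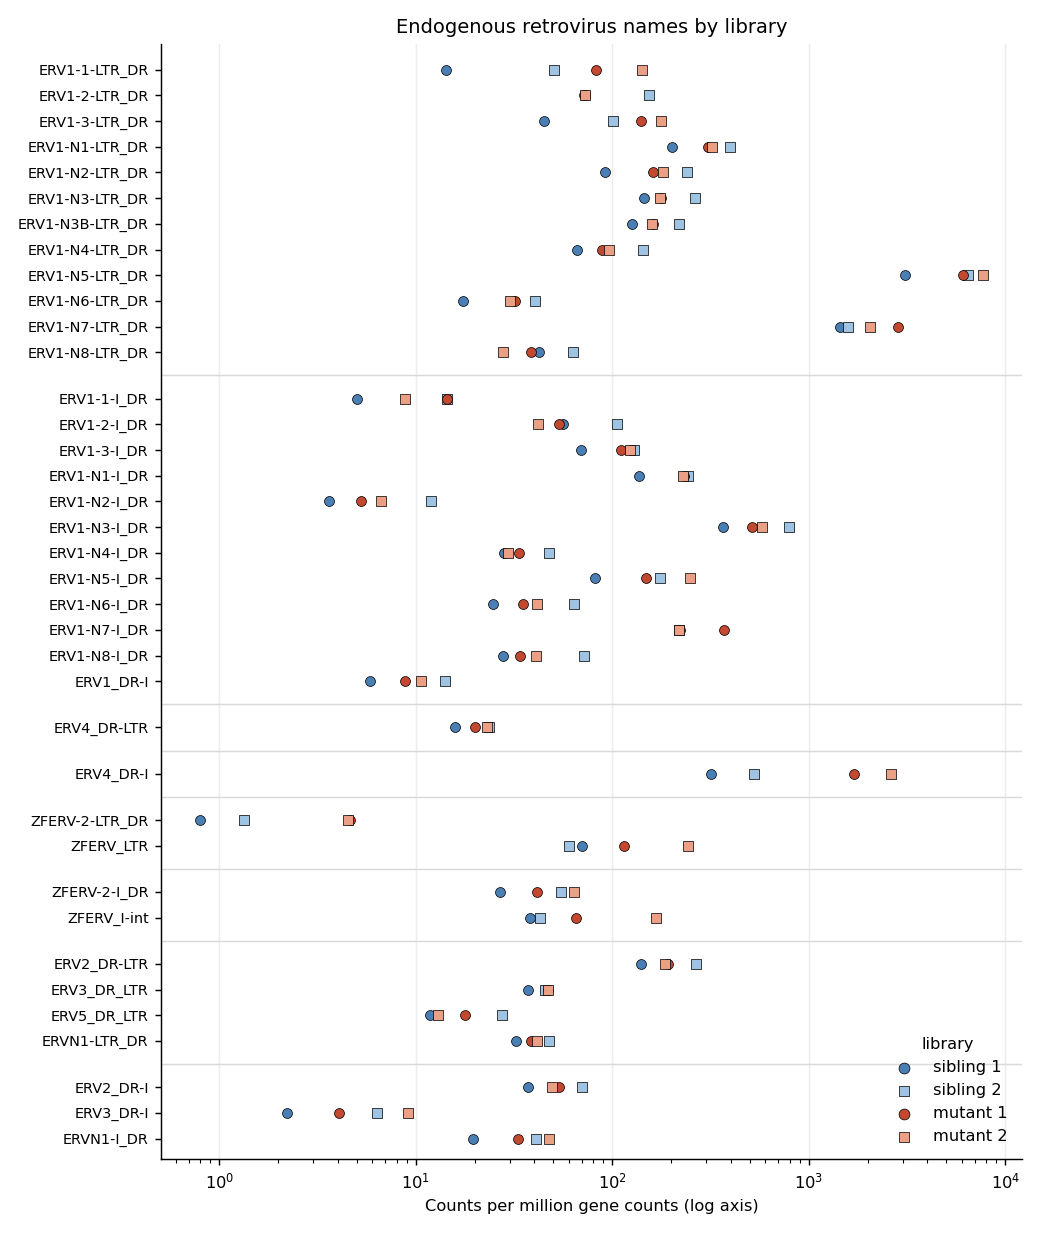
Each row is an endogenous retrovirus name and each point is 1 library, placed on a log axis of counts per 1000000 gene counts; rows are grouped by family and by LTR or internal part. ERV4_DR-I runs from 317 in sibling 1 to 2622 in mutant 2 with a clear gap between the groups, while ERV4_DR-LTR stays between 15.9 and 23.7. In most rows sibling 1 lies lowest.

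The ERV4 internal part was the member with the largest rise. ERV4_DR-I stood at 317 and 525 gene-scaled counts in siblings 1 and 2 and at 1696 and 2622 in mutants 1 and 2. Mutant 1, the lower mutant, lay far above sibling 2, the higher sibling. In log2 ERV4_DR-I rose by 2.30 (SE 0.50, edgeR adjusted p = 0.00173). As a share of transposon counts it went from 0.235% and 0.198% to 0.933% and 1.39%, and with transposon totals as the scale the rise in log2 was 2.42 (SE 0.16, edgeR adjusted p = 1.15e-05). It made up 4.46% and 4.10% of endogenous retrovirus counts in the siblings and 12.1% and 16.1% in the mutants.

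That call depended on the setting, while the size moved less. The edgeR adjusted p was 0.112 with raw gene totals in place of TMM, 0.00727 without sibling 1, 0.0237 without sibling 2 and 1 without mutant 1, and no repeat name passed without mutant 2. Over all alternatives it ran from 8.29e-07 to 1. The log2 fold change stayed between 2.00 and 2.55 across them, with an SE of 1.09 without mutant 1.

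The LTR of the same family did not show this. ERV4_DR-LTR stood at 15.9 and 23.7 gene-scaled counts in siblings 1 and 2 and at 20.1 and 23.0 in mutants 1 and 2. All 4 libraries lay in one narrow range and the groups overlapped, with a log2 fold change of 0.07 (SE 0.55, edgeR adjusted p = 0.998). The LTR had only 71 to 183 counts per library, against 1573 to 15434 for the internal part.

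Among ERV1 names, the abundant ERV1-N5 and ERV1-N7 LTRs made up most of the sum. The 24 ERV1 names together stood at 6368 and 11580 gene-scaled counts in siblings 1 and 2 and at 11729 and 12733 in mutants 1 and 2, and sibling 2 and mutant 1 were nearly equal. As a share of transposon counts they held 4.54% ± 0.249 (SD, n = 2) in siblings and 6.59% ± 0.195 (SD, n = 2) in mutants, with an exact permutation p of 0.333. Of these names, 12 had a fold change above 0 and 12 below. None passed when scaled to genes with edgeR, and 2 had an unadjusted p under 0.05; DESeq2 passed none and limma-voom passed ERV1-1-LTR_DR.

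ERV1-N5-LTR_DR, the name with the most counts, stood at 3081 and 6435 gene-scaled counts in the siblings and at 6058 and 7723 in the mutants. Sibling 2 lay above mutant 1, and the change in log2 scaled to genes was 0.49 (SE 0.47, edgeR adjusted p = 0.998). As a share of transposon counts it was 2.28% and 2.42% in the siblings and 3.33% and 4.08% in the mutants, where the groups did not overlap. On that scale the change was 0.66 in log2 (SE 0.09, edgeR adjusted p = 0.00233). ERV1-N5-I_DR, the internal part, stood at 0.0605%, 0.0659%, 0.0818% and 0.131% in the same order, also without overlap, and did not pass (log2 fold change 0.74 on the transposon scale, edgeR adjusted p = 0.0678).

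ERV1-N7-LTR_DR followed another pattern. It stood at 1443 and 1587 gene-scaled counts in the siblings and at 2849 and 2055 in the mutants, with no overlap (log2 fold change 0.62, SE 0.48, edgeR adjusted p = 0.998). As a share of transposon counts it was 1.07%, 0.598%, 1.57% and 1.09% in siblings 1 and 2 and mutants 1 and 2. The library numbered 1 was the higher in each group, and sibling 1 nearly reached mutant 2. It did not pass on the transposon scale either (0.67, SE 0.22, edgeR adjusted p = 0.174). Scaled to genes, the log2 fold change was 0.68 and 0.57 without siblings 1 and 2, and 0.31 and 0.87 without mutants 1 and 2.

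ERV1-1 and ERV1-3 were named after their values were seen, because their LTRs were called on the transposon scale. ERV1-1-LTR_DR stood at 14.3 and 50.7 gene-scaled counts in siblings 1 and 2 and at 82.2 and 142 in mutants 1 and 2. The groups did not overlap, but sibling 2 was far above sibling 1, and the change in log2 was 1.77 (SE 0.52, edgeR adjusted p = 0.0887). With transposon totals it was 1.99 (SE 0.29, edgeR adjusted p = 0.00233). ERV1-3-LTR_DR stood at 44.8 and 101 in the siblings and at 140 and 176 in the mutants, likewise without overlap. The log2 fold change of this LTR was 1.08 (SE 0.51, edgeR adjusted p = 0.998) scaled to genes and 1.25 (SE 0.14, edgeR adjusted p = 0.000464) with transposon totals. Scaled to genes, the log2 fold changes without siblings 1 and 2 were 1.16 and 2.74 for ERV1-1-LTR_DR and 0.68 and 1.61 for ERV1-3-LTR_DR. Without mutants 1 and 2 they were 2.07 and 1.38 for ERV1-1-LTR_DR and 1.19 and 0.95 for ERV1-3-LTR_DR. Such fits leave 1 library in a group and are given for size only. DESeq2 passed neither LTR (adjusted p = 0.955 and 0.440). With the replicate number as a block, ERV1-1-LTR_DR had an edgeR adjusted p of 0.469. With limma-voom the adjusted p was 0.00280 for ERV1-1-LTR_DR and 0.339 for ERV1-3-LTR_DR.

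Other ERV1 names lay lower in the mutants or did not separate. ERV1-2-I_DR stood at 56.4 and 105 gene-scaled counts in the siblings and 53.3 and 41.8 in the mutants, and ERV1-2-LTR_DR at 72.5 and 155 against 71.9 and 72.4, where mutant 2 lay just under sibling 1. ERV1-N8-LTR_DR stood at 42.4 and 63.1 against 38.7 and 27.9. They were the 3 of the 37 with both mutants below both siblings, and they too were named after their values were seen. Their log2 fold changes were -0.80, -0.69 and -0.71, and none passed (edgeR adjusted p = 0.998 for each). ERV1-N3-I_DR, with the most counts of the ERV1 internal parts, stood at 364, 794, 516 and 575 in the library order used above, so both mutants lay between the siblings. ERV1-N1-LTR_DR, at 200, 396, 306 and 323, and ERV1-N1-I_DR, at 137, 244, 231 and 228, did the same. ERV1-N7-I_DR stood at 220, 218, 371 and 219, with mutant 1 above the other libraries. By type of family, the 17 names with N had a median log2 fold change of -0.12 and the 7 without N one of 0.19, beside -0.15 over all repeat names.

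ZFERV, a zebrafish endogenous retrovirus known to be transcribed in the thymus, had higher values in the mutants that did not pass. ZFERV_I-int stood at 38.1 and 42.7 gene-scaled counts in siblings 1 and 2 and at 65.1 and 168 in mutants 1 and 2. ZFERV_LTR stood at 70.5 and 60.1 in the siblings and at 114 and 243 in the mutants. In each, both mutants lay above both siblings and mutant 2 lay far above mutant 1. The log2 fold changes were 1.43 (SE 0.51, edgeR adjusted p = 0.361) and 1.34 (SE 0.51, edgeR adjusted p = 0.465). Without mutant 2 they were 0.65 and 0.76. Without sibling 1, ZFERV_LTR passed (1.58, SE 0.40, edgeR adjusted p = 0.0225) and ZFERV_I-int did not (edgeR adjusted p = 0.0603).

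The second ZFERV family had fewer counts. ZFERV-2-LTR_DR had 4 counts in each sibling and 42 and 15 in mutants 1 and 2, or 0.803, 1.33, 4.62 and 4.55 gene-scaled counts. The groups did not overlap, and the change in log2 was 2.05 (SE 0.80, edgeR adjusted p = 0.524). ZFERV-2-I_DR stood at 26.9, 55.1, 41.4 and 64.0 in the same order and overlapped (0.31, SE 0.51, edgeR adjusted p = 0.998). On the transposon scale all 4 ZFERV names had both mutants above both siblings, where 25% of all transposon names did, and none passed with edgeR (3 had an unadjusted p under 0.05). DESeq2 and limma-voom passed none of them.

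No thymus or lymphoid marker passed as higher beside the ZFERV values. Of 15 markers matched to the gene table, 9 were tested and 2 passed as lower, where 3.79% of all genes were called lower. Levels of *rag1*, a recombinase gene of developing lymphocytes, were 5.18 and 8.79 CPM in the sibling libraries against 1.32 and 1.44 in the mutant libraries (log2 fold change -2.32, SE 0.52, edgeR adjusted p = 0.0225). *coro1a*, an actin regulator of leukocytes, had levels of 33.3 and 20.4 CPM against 10.3 and 6.60 and fell by 1.62 on the log2 scale (SE 0.34, edgeR adjusted p = 0.0169). Neither gene passed once mutant 2 was left out (edgeR adjusted p = 0.0777 and 0.0741). *rag1* also missed the threshold without sibling 2 or without mutant 1 (edgeR adjusted p = 0.104 for each). *runx3*, *gata3* and the other 5 tested did not pass. The summed level of the 15 markers ran from 176 to 177 CPM in the siblings and from 120 to 124 CPM in the mutants. In sibling 1 *runx3*, *tox* and *coro1a* held 59.4, 35.3 and 33.3 CPM of it and *rag1* 5.18. A few genes thus carry the sum, and it is not read as a thymus level. *lck*, a T cell kinase gene, had no counts in sibling 1 or in either mutant, and *cd8a*, a T cell co-receptor gene, had none in sibling 2 or mutant 2. The part of cell number in the ZFERV values was not tested.

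The sum of the 7 names of the remaining families did not separate the groups on the gene scale. Together they stood at 281 and 507 gene-scaled counts in siblings 1 and 2 and at 386 and 393 in mutants 1 and 2, so the mutants lay between the siblings. Their share of transposon counts was 0.208%, 0.191%, 0.212% and 0.208%, so sibling 1 and mutant 2 were level. ERV2_DR-LTR, the most abundant, stood at 140, 268, 192 and 186 gene-scaled counts (log2 fold change -0.15, SE 0.50, edgeR adjusted p = 0.998). ERV2_DR-I, at 37.3, 70.4, 53.3 and 49.4, ERVN1-LTR_DR, at 32.3, 47.7, 38.6 and 41.2, ERVN1-I_DR, at 19.5, 41.0, 33.1 and 47.6, and ERV3_DR-I, at 2.21, 6.34, 4.07 and 9.09, overlapped as well. ERV3_DR_LTR, at 37.3, 45.7, 46.9 and 47.3, was the 1 name of the 7 with both mutants above both siblings on the gene scale, and the gap was small. None of the 7 had an unadjusted edgeR p under 0.05 when scaled to genes, and neither DESeq2 nor limma-voom passed any. As a share of transposon counts, ERVN1-I_DR was 0.0144% and 0.0155% in the siblings and 0.0182% and 0.0252% in the mutants. There the groups did not overlap, and the name did not pass (edgeR adjusted p = 0.289).

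Internal parts and LTRs were next compared within elements. Of 20 elements, 17 had both an internal and an LTR name. The ratio of internal to LTR counts comes from 1 library each time, so it does not depend on library scaling. For ERV4 there were 20 and 22.2 internal counts per LTR count in siblings 1 and 2, and 84.3 and 114 in mutants 1 and 2. The siblings lay close together and both mutants far above them, a log2 difference of 2.22 (exact permutation p = 0.333). Leaving out 1 library kept this difference between 2.00 and 2.44.

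Several other elements differed the opposite way or overlapped between the groups. For ERV1-1 the ratio was 0.352 and 0.283 in the siblings and 0.176 and 0.0620 in the mutants, and for ERV1-3 it was 1.55 and 1.28 against 0.793 and 0.699. For ZFERV-2 it was 33.5 and 41.3 against 8.98 and 14.1, which rests on the 4 LTR counts of each sibling. In these 3 elements the LTR counts had the larger fold change. For ZFERV the ratio was 0.541, 0.711, 0.568 and 0.690, and the groups overlapped. For ERV1-N5 it was 0.0265, 0.0272, 0.0245 and 0.0321, and the groups overlapped.

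Of the 17 elements, the ratio was higher in both mutants than in both siblings for ERV4 and ERV1-N1, lower for 6 and overlapping for 9. With at least 10 counts of each part in every library, 16 remained, 2 with both mutants above and 5 with both below. Among 81 other LTR retrotransposon elements under the same minimum, both mutants lay above in 18.5% and below in 21%. The log2 difference of 2.22 for ERV4 was larger than that of any of these 81, which ran from -1.68 to 1.03 with a median of -0.02. Over all endogenous retrovirus names the summed ratio was 0.259 in each sibling and 0.326 and 0.387 in mutants 1 and 2. Without ERV4_DR-I the direction turned, with 0.203 and 0.207 in the siblings and 0.166 and 0.163 in the mutants. The higher summed ratio in the mutants thus rested on that name.

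**Figure D3:**
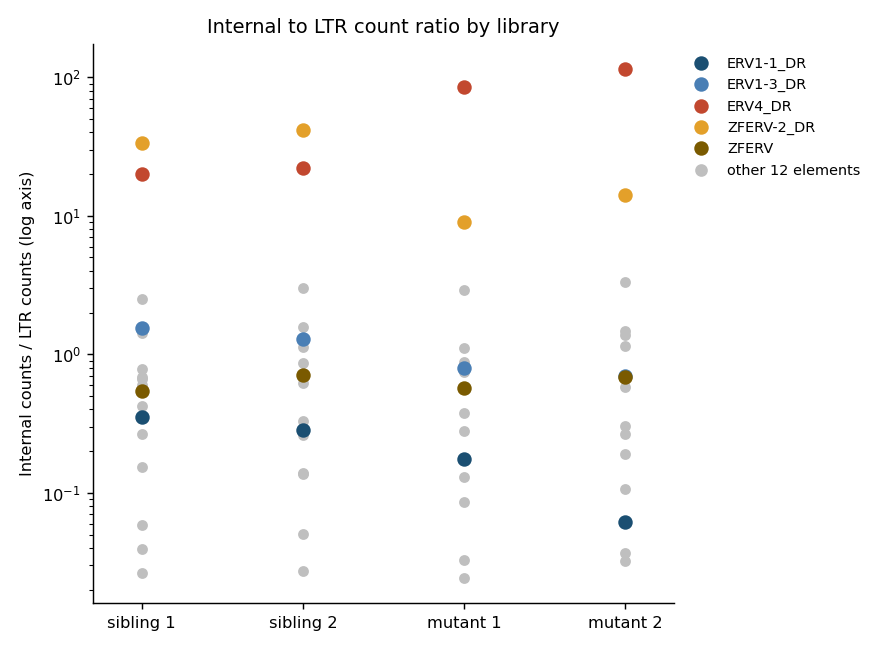
Points give internal counts divided by LTR counts (log axis) in each of the 4 libraries for the 17 elements with both parts; 5 elements are coloured and the other 12 are grey. ERV4 moves from about 20 in the siblings to 84.3 and 114 in the mutants, while ERV1-1, ERV1-3 and ZFERV-2 lie lower in both mutants.

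Summed over names, internal parts stood at 1466 and 2629 gene-scaled counts in the siblings and at 3456 and 4533 in the mutants. LTR parts stood at 5652 and 10166 against 10600 and 11718. Both sums had both mutants above both siblings (exact permutation p = 0.333 for each). Without ERV4_DR-I the internal sum was 1148, 2104, 1760 and 1911, and the groups overlapped. Without ERV1-N5-LTR_DR the LTR sum was 2571, 3731, 4542 and 3996, and they did not. Among names, the median log2 fold change was 0.21 for internal parts and 0.04 for LTRs.

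**Figure D4:**
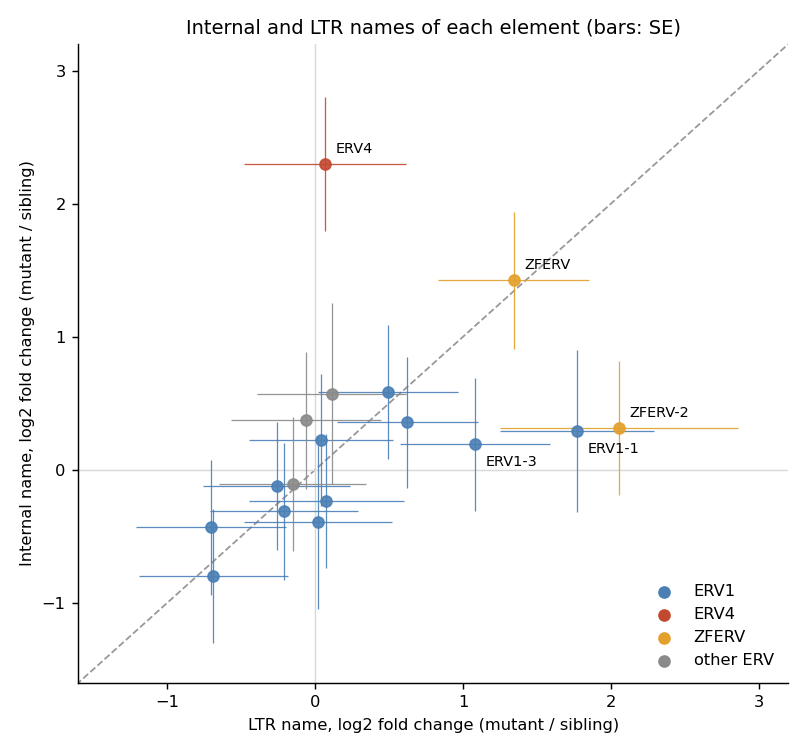
Each point is 1 of the 17 elements, with the log2 fold change of its LTR name on the horizontal axis and of its internal name on the vertical axis (mutant over sibling, edgeR scaled to genes; bars are 1 SE; the dashed line marks equal change). ERV4 lies far above the line at 0.07 and 2.30, ZFERV lies on it at 1.34 and 1.43, and ERV1-1, ERV1-3 and ZFERV-2 lie to its right.

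On the transposon scale more names passed. With transposon totals as library sizes, edgeR called 4 of the 37 names higher and none lower, where 2.21% of 903 transposon names were called higher and 0% lower. They were ERV4_DR-I, ERV1-1-LTR_DR, ERV1-3-LTR_DR and ERV1-N5-LTR_DR, and TMM on the transposon names also called 4. Without adjustment, 13 names had a p under 0.05 as higher and 3 as lower, beside 99 and 45 of the 903 transposon names. Both mutants exceeded both siblings in 15 of the 37 names and fell short of both in 4, where 25% and 22.6% of transposon names did. The median log2 fold change over the 37 names was 0.19 on this scale, beside 0.01 over all transposon names. Gypsy internal, Gypsy LTR and BEL LTR names had higher medians, of 0.23, 0.23 and 0.40, and BEL internal names a lower one of 0.04. Scaled to genes the median was 0.07 over the 37 names and -0.14 over all transposon names. A change of library sizes moves every name by nearly the same amount, so this shift is not a result about the 37 names.

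Both siblings weighed on the gene scale, in opposite directions. Without sibling 2, the median log2 fold change scaled to genes was 0.49 over the 37 names and 0.28 over all repeat names tested. Without sibling 1 these medians were -0.22 and -0.49, beside 0.07 and -0.15 with all 4 libraries. Each fit without a sibling takes its spread from the mutants alone. Without mutant 1 or without mutant 2, edgeR called no repeat name at all, and 1 and 0 of the 37 had an unadjusted p under 0.05 as higher.

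**Figure D5:**
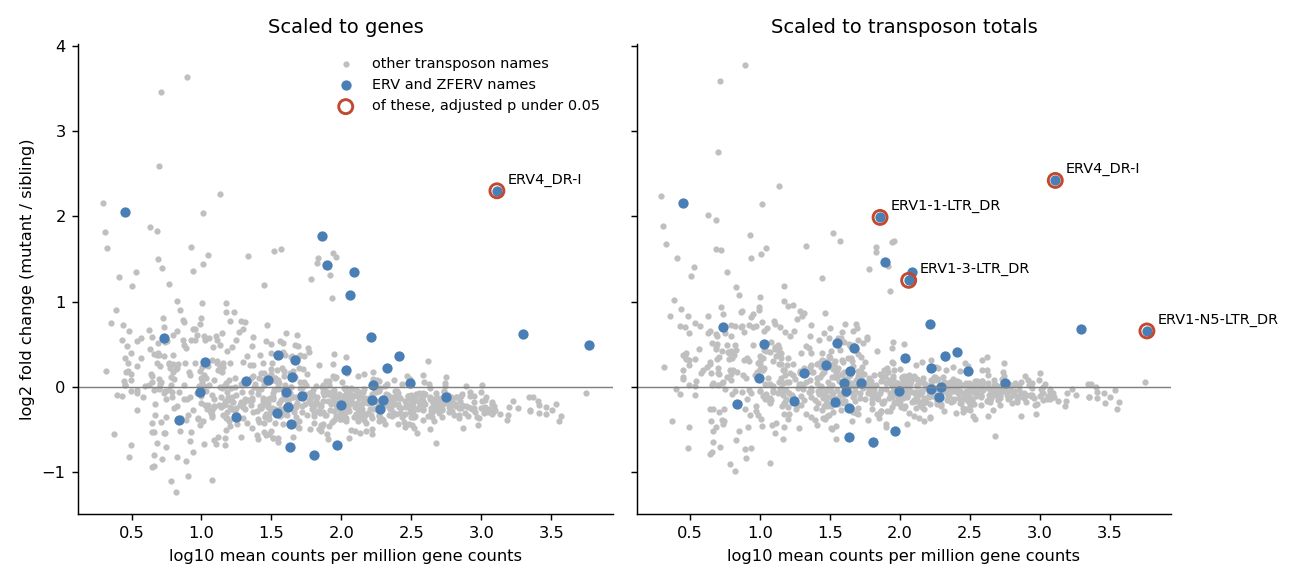
Both panels plot the log2 fold change (mutant over sibling) of transposon names against the log10 of their mean counts per 1000000 gene counts, scaled to genes on the left and to transposon totals on the right. Blue points are the 37 endogenous retrovirus names and red rings mark those with an edgeR adjusted p under 0.05, which is 1 name on the left and 4 on the right. The other names have a median of -0.14 on the left and 0.0080 on the right.

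Gypsy and BEL, the other large groups of LTR retrotransposons, are given beside these names. Scaled to genes, edgeR called 1 of 107 Gypsy internal names and 1 of 138 Gypsy LTR names, both higher. The medians were 0.07 and 0.08 for Gypsy internal and LTR names and -0.04 and 0.19 for BEL. Also scaled to genes, both mutants exceeded both siblings in 19.6% and 17.4% of Gypsy internal and LTR names. For BEL these shares were 21.7% and 20.6%, and for the endogenous retrovirus names 21.6%. With transposon totals, edgeR called 3 of 106 and 7 of 136 Gypsy names and 1 of 23 and 2 of 33 BEL names higher, internal and LTR in turn. On that scale both mutants exceeded both siblings in 41 and 59 of these Gypsy names and in 10 and 18 of these BEL names. Among the endogenous retrovirus names they did so in 15 of 37. The difference between these groups and the endogenous retrovirus names was not tested.

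Genes around retroelement control were read from the gene table in the same way, with CPM after TMM scaling. Of 36 silencing genes tested, 2 were higher and none lower; of all genes 8.37% were called, 4.58% as higher. The median log2 fold change was 0.20, beside 0.0036 over all genes. The de novo methyltransferase gene *dnmt3bb.2* had 10.1 and 19.5 CPM in the sibling libraries and 38.0 and 61.2 in the mutant libraries (1.75 in log2, SE 0.35, edgeR adjusted p = 0.0122). The maintenance methyltransferase gene *dnmt1* had 39.8 and 62.8 against 86.5 and 128 CPM (1.07, SE 0.28, edgeR adjusted p = 0.0440). *chaf1a*, a subunit of the chromatin assembly factor, had 1.07 (SE 0.38) and *eed*, of the Polycomb repressive complex, 0.93 (SE 0.38), and neither passed (edgeR adjusted p = 0.117 and 0.170). No silencing gene passed without mutant 2 (edgeR adjusted p = 0.0553 for *dnmt3bb.2* and 0.268 for *dnmt1*), and the call of *dnmt1* was also lost without sibling 1 (0.0734). Levels of *uhrf1* overlapped, as given above.

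Many sensors of foreign nucleic acid and most interferon-stimulated genes rose. Of 20 sensor and adaptor genes tested, 10 were higher and none lower, where 4.58% and 3.79% of all genes were, with a median log2 fold change of 1.59. *dhx58*, a regulator of the RIG-I pathway, had 6.75 and 6.91 CPM in siblings against 94.0 and 128 in mutants (4.01 in log2, SE 0.27, edgeR adjusted p = 4.21e-05). The signalling adaptor gene *traf3* (2.61, SE 0.23), the interferon regulatory factor gene *irf7* (3.18, SE 0.29) and *pkz*, a kinase gene of fish that binds Z-form nucleic acid (2.61, SE 0.28), followed. Of 19 interferon-stimulated genes tested, 16 were higher and none lower, against the same shares of all genes, with a median of 4.60. Those with the lowest p were *stat1b* (5.84, SE 0.30), *b2m* (5.05, SE 0.30), *mxc* (6.15, SE 0.38) and *mxe* (6.41, SE 0.43). Mx genes are close copies whose reads can be split. Some listed genes reached the count filter only through the mutants, so they could hardly be called lower. In siblings 1 and 2, *mxe* had 4 and 3 counts, *mxb* 2 and 1, *ifit8* 1 and 1 and *socs1b* 0 and 0. Of the sensor and adaptor genes, *rigi* had 2 and 3 and *sting1* 5 and 1. Also called higher were *tlr22*, with 13 and 7, *rsad2*, with 4 and 13, and *ifit14*, with 7 and 10. Those genes needed a mutant library to reach the filter. The median of 4.60 is the value of *ifit10*, with 1 and 5. The tallies and medians rest in part on such genes. Any relation of these levels to the endogenous retrovirus counts was not tested.

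Blood cell markers moved unevenly beside these lists. Of 6 neutrophil markers tested, 3 were higher, namely *mmp9*, *mpx* and *mmp13a*, and 1 lower, *cpa5*. Beside this list and the macrophage list below, 4.58% of all genes were called higher and 3.79% lower. *mmp13a* had 4 and 3 counts in siblings 1 and 2 and reached the count filter only through the mutants. The call of *mmp13a* was lost without mutant 1 (edgeR adjusted p = 0.0878). *cpa5* is a carboxypeptidase gene known in zebrafish as a mast cell marker, so its place in this list does not make it a neutrophil measure. The cells that gave its counts in whole larvae were not identified, so it is not read as a mast cell level either. The myeloperoxidase gene *mpx* had 14.6 and 16.0 against 64.4 and 78.7 CPM, and the lysozyme gene *lyz* did not pass. Of 4 macrophage markers, *mpeg1.2* was higher (2.06, SE 0.23) and *mpeg1.1* lower (-1.58, SE 0.31), the latter lost without mutant 1 (edgeR adjusted p = 0.0688). Summed over the neutrophil list the level was 1628 and 969 CPM in sibling libraries and 476 and 355 in mutant libraries. Of this *cpa5* held 1553 and 879 against 153 and 22.7 CPM, so the sum is not read as a neutrophil level. Summed over the macrophage list it was 65.1 and 77.9 against 120 and 130 CPM. In mutants 1 and 2 *mpeg1.2* alone held 93.8 and 95.3 CPM of this, while *mpeg1.1* was lower. The higher sum in the mutants thus rests on *mpeg1.2*, and it is not read as a macrophage level. The part of blood cells in the retrovirus counts was not tested.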

How the data were processed

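The authors deposited 2 tables of whole-number counts, one by RefSeq accession for genes and one by repeat name. The submitters' processing notes list Bowtie2 2.1.0, HTSeq, DESeq2 and build GRCz10, without saying which step each served. For the repeat annotation, the strand setting and reads with several matches, the procedure was not given in the sources used here, so reads of near-identical copies, or of copies inside host transcripts, cannot be told apart. A symbol was found by accession for 14472 of 15171 gene rows in a RefSeq table of GRCz12tu, used for names only. Transposon names are what is left after simple, low-complexity, satellite and structural RNA names.

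Both count tables were tested with edgeR 4.0.16 under R 4.3.3 (filterByExpr on the groups, quasi-likelihood test, no block, Benjamini-Hochberg adjustment over all names or genes, threshold 0.05). Repeats took the effective library sizes of the gene table, whose TMM factors ran from 0.892 to 1.06. An SE is the log2 fold change divided by the root of its F statistic. Because the spread is largely shared over names, the SE hardly followed a name's own replicates. Scaled to genes, it was 0.50 for ERV3_DR_LTR, whose libraries lay close together. For ZFERV_I-int, with mutant 2 far above mutant 1, it was 0.51. Gene CPM use the TMM sizes, repeat levels the gene totals. Sums, shares and ratios had exact two-sided permutation tests. The biological coefficient of variation was 30.6% for repeats. Replicates were not duplicates, since the counts of genes differed by a chi-square of 15.7 (siblings) and 13.6 (mutants) per degree of freedom. Alternatives were DESeq2 1.42.0, limma-voom (limma 3.58.1), other scalings, filters of none and of 50 counts in 2 libraries, a block by replicate number and leaving out each library. Transposon totals as library sizes were added after the data were seen. The text names repeats past the threshold, all ZFERV names and the 3 with most counts per family and part. From each gene list it names up to 4 genes with the lowest p, with *uhrf1* and *dnmt1*. ERV1-N5-I_DR, *lck*, *cd8a*, *lyz* and *tox* were also named after their values were seen. So were the other interferon and sensor genes given for their low sibling counts. The members and gene lists were chosen with earlier results of these data known.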

Additional observations from a re-analysis of the deposited data

How the results depend on the processing

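The count of endogenous retrovirus names called higher, 1 with edgeR scaled to genes, was 0 with raw gene totals and 2 with limma-voom. It was 4 with TMM on the transposon names or with transposon totals. Over all names tested these settings called 3 of 1029, 1 of 1039, 10 of 1029, 19 of 903 and 20 of 903 higher, in turn. No endogenous retrovirus name was called lower in these settings. Counts with a library left out are not read, since 1 library is left in a group. Calls over all repeat names changed in those fits as well. With the replicate number as a block no endogenous retrovirus name was called higher (edgeR adjusted p = 0.2 for ERV4_DR-I). Genes called higher with the block were 5 silencing factors and 16 sensors. Deviations of same-numbered libraries correlated at 0.22 over repeats and 0.23 over genes. With only 2 pairs, and no label that ties a number to a clutch, the numbers were not taken as pairs. Leaving out a library also changed how many silencing factors were called higher and how many thymus markers were called lower. The shares of all genes called with the block or with a library left out are not given here. These tallies thus show only that the calls depend on the setting. The log2 difference of the summed ERV2, ERV3, ERV5 and ERVN1 names, 0.05, was -0.031 with TMM and -0.38 to 0.47 with a library left out. On the same scale with a library left out, the difference in all names ranged from 0.24 to 1.09 and in the ERV4 ratio from 2.00 to 2.44, and the share difference from 2.69 to 3.54 percentage points.

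Single names that did not pass changed sign. With TMM on transposon names and with transposon totals the log2 fold changes were 0.047 in both for ERV1-N3-I_DR, 0.041 and 0.040 for ERV2_DR-I, and 0.039 in both for ERVN1-LTR_DR. With a library left out they ranged from -0.20 to 1.06 for ERV1-1-I_DR, -0.10 to 0.55 for ERV1-3-I_DR, -0.042 to 0.54 for ERV1-N1-I_DR, -0.29 to 0.45 for ERV1-N1-LTR_DR, -0.50 to 0.38 for ERV1-N3-I_DR and -0.14 to 0.72 for ERV1-N7-I_DR. The ranges were -0.40 to 0.26 for ERV2_DR-I, -0.46 to 0.23 for ERV2_DR-LTR, -0.031 to 1.26 for ERV3_DR-I, -0.10 to 0.23 for ERV4_DR-LTR, -0.0078 to 0.82 for ERVN1-I_DR, -0.22 to 0.095 for ERVN1-LTR_DR and -0.048 to 0.74 for ZFERV-2-I_DR. They were -0.55 to 0.16 for *csf1ra*, -0.60 to 0.11 for *gata3* and -0.69 to 0.44 for *uhrf1*. Where a library left out leaves 1 in a group, that library is assumed to vary like the other group. The cause of these changes was not tested. With 2 libraries a group, and as few as 4 counts for ZFERV-2-LTR_DR, depth and replicate number limit the smaller names.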
